A study of Mus musculus with 3 samples.

Results

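Collagens, laminins and the proteins that bind, cross-link or cleave them make up the extracellular matrix. The 39 genes described here were taken by symbol from the 55450 features of the gene tables, and all 39 were found. They comprise 6 fibrillar collagen chains, 3 chains of type VI collagen, 4 other collagens, 11 basement membrane genes, 2 small proteoglycans, 3 fibulins and fibrillin, 3 matricellular genes, 2 cross-linking enzymes and 5 proteases and protease inhibitors. They were measured in fibroblast-like, mural-like, endothelial-like, mesothelial-like and ductal-like cells of mouse pancreas.

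Single-cell RNA was counted in 3 libraries, 1 per group, made with the 10x Chromium 3′ kit, version 3. The diabetic exercise library came from male db/db mice whose treadmill training began at 6 weeks of age, and the diabetic sedentary library is labelled diabetic and titled "seden". The third library, called none after its treatment label, has the title "seden" too. The sources used here give neither its genotype nor the age of any mice at collection. In ratios over none, diabetes therefore cannot be told apart from genetic background, age or handling. Mice homozygous for db carry a defective leptin receptor gene in all tissues and become obese and diabetic. Titles end in 3, which is not explained, and the number of animals in a library is not known.

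Fibrillar collagens are trimers that assemble outside the cell into the fibrils of connective tissue, and are made mainly by fibroblasts. Basement membranes are thin sheets under epithelia and around vessels, in which a type IV collagen network and a laminin network are joined by nidogens and perlecan. In the pancreas they surround acini, ducts, capillaries and islets, while fibrillar collagen lies around lobules, ducts and larger vessels.

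The libraries held 18433, 12743 and 9958 barcodes in diabetic exercise, diabetic sedentary and none, with medians of 1887, 4640 and 3952 UMIs (unique molecular identifiers, 1 per captured RNA molecule). Median mitochondrial shares were 7%, 2.2% and 0.708%, and 75 to 104 barcodes of each library recurred in another. Acinar enzyme RNA was present in all cells, and its estimated part in the UMIs of fibroblast-like cells was 31.9%, 38.5% and 53.7%. The classes held 219, 454 and 241 fibroblast-like, 81, 163 and 42 mural-like, 245, 475 and 98 endothelial-like, 14, 10 and 38 mesothelial-like, and 615, 578 and 139 ductal-like cells. Clusters were formed without the matrix genes and named from other markers. Each class carried the markers of its own name, with all 14 fibroblast, 13 endothelial, 11 mesothelial and 14 ductal markers seen in every library, and 12 or 13 of 13 mural markers. Fibroblast markers were also found in mesothelial-like cells, at 11632, 15029 and 10541 CPM (UMI counts scaled to the usual common total, taken here over UMIs outside acinar markers and mitochondrial genes and called non-acinar CPM) against 31741, 30043 and 28442 in fibroblast-like cells, with Dpt and Lsp1 at 0 in mesothelial-like cells of all libraries.

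Fibroblast-like cells had the highest level of 32 of the 39 genes, by the median of non-acinar CPM over the 3 libraries. They held 92.6% of all Col1a1 UMIs of kept cells, 90.5% of Col3a1 and 88.6% of Dcn. On that scale Col1a1, the main chain of type I collagen, stood at 4444, 3743 and 1874 non-acinar CPM in fibroblast-like cells of diabetic exercise, diabetic sedentary and none. In ductal-like cells it stood at 1.93, 4.24 and 2.67. Dcn, decorin, a proteoglycan that coats collagen fibrils, stood in fibroblast-like cells at 10900, 14135 and 12995 non-acinar CPM. Mesothelial-like cells, which cover the surface of the organ, came next for Dcn at 6733, 9539 and 9680.

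In single libraries Postn (none, mural-like), Adamts4 (diabetic exercise, endothelial-like, and none, mural-like), and Timp1 (diabetic sedentary) and Nid2 (none, both mesothelial-like) were higher in another class. The other 7 genes were highest elsewhere by the median. Timp3, a matrix-bound inhibitor of metalloproteases, was highest in mural-like cells, which wrap small vessels, at 1945, 4033 and 5519 non-acinar CPM, and next in endothelial-like cells at 2058, 2546 and 3027. In diabetic exercise the order of these 2 classes was turned. Lamb2, a laminin beta chain of mature vessels, was highest in mural-like cells of both diabetic libraries and by the median, at 584, 325 and 43.8. In none, where 2 UMIs were counted, the mural-like level was the lowest of the 5 classes, which had up to 159 in endothelial-like cells. Lama5, a laminin alpha chain of epithelial and vascular basement membranes, had medians between 69.7 and 82.3 in mural-like, endothelial-like, mesothelial-like and ductal-like cells, whose ranges over the libraries overlapped, and 3.499 in fibroblast-like cells.

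Fbln1 (fibulin-1), Timp2 and Col18a1 were highest in mesothelial-like cells. For Timp2 the levels were 2252, 1858 and 2074 non-acinar CPM there and 1683, 1335 and 1834 in fibroblast-like cells, so that the lowest mesothelial-like library lay above the highest fibroblast-like one. For Fbln1 and Col18a1 the ranges of the leading classes overlapped. Col4a2 was marginally highest in endothelial-like cells, with a median of 1012 non-acinar CPM against 967.5 in fibroblast-like cells, and these ranges overlapped as well.

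**Figure D1:**
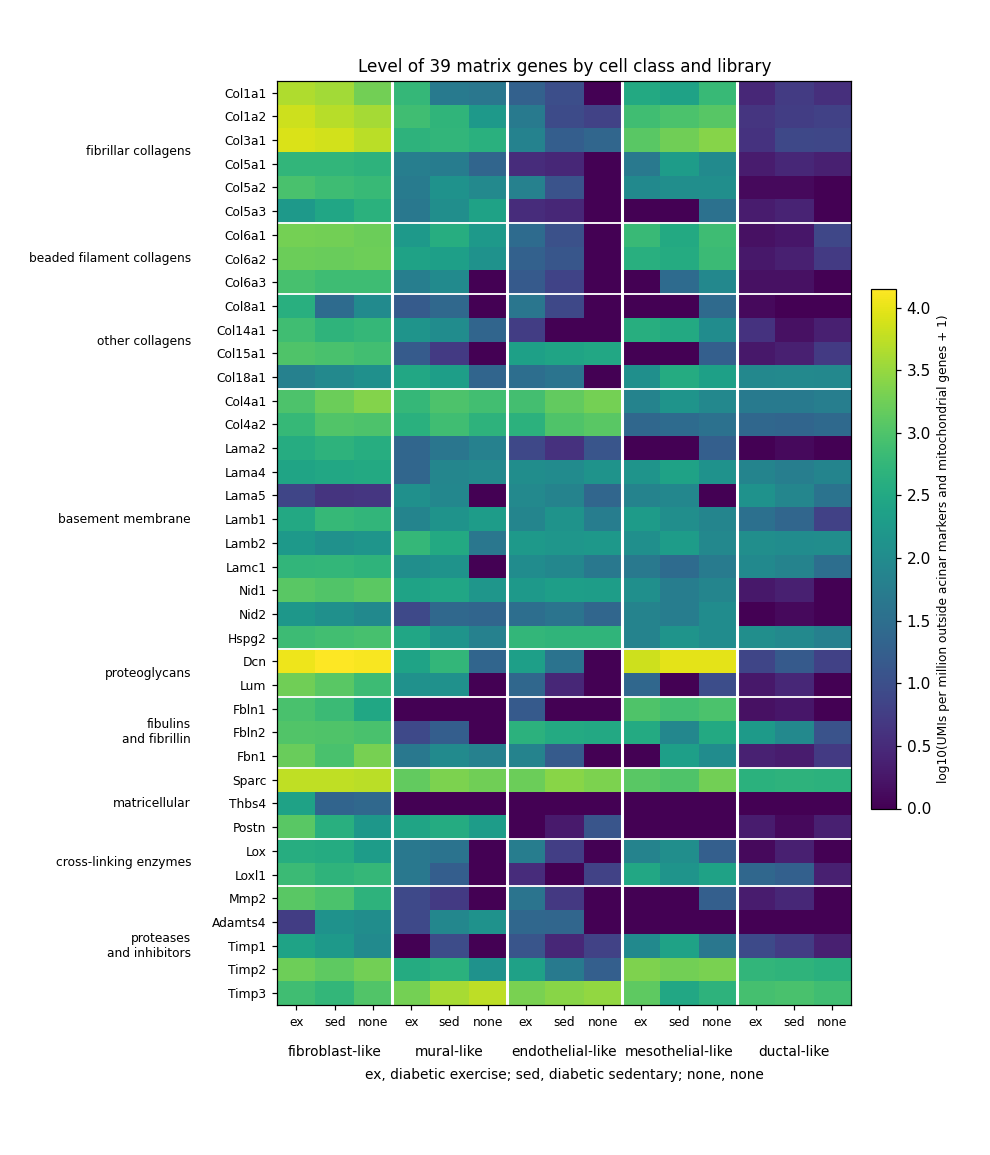
Level of each of the 39 genes (rows, by role) in 5 cell classes and 3 libraries (columns: ex, diabetic exercise; sed, diabetic sedentary; none), as log10 of non-acinar CPM plus 1. By the median over libraries fibroblast-like columns are brightest for 32 genes, with single libraries of Postn, Adamts4, Timp1 and Nid2 brighter in another class, while Lama5 is dim there and Timp3 is brightest in mural-like and endothelial-like columns.

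With UMIs of both gene groups added up, fibrillar collagens outweighed basement membrane genes in fibroblast-like and mesothelial-like cells and the reverse held in the other classes. In fibroblast-like cells fibrillar chains had 13222 UMIs against 3344 of basement membrane genes in diabetic exercise, 22153 against 8479 in diabetic sedentary, and 7155 against 4277 in none. The fibrillar share was 79.8% (exact 95% interval 79.2 to 80.4), 72.3% (71.8 to 72.8) and 62.6% (61.7 to 63.5). All intervals here cover counting error only and not the spread between mice, which 1 library per group cannot show, and no p-value was computed. The log2 odds ratio of fibrillar against basement membrane UMIs was 0.60 (0.53 to 0.66) for exercise over sedentary and 0.64 (0.58 to 0.71) for sedentary over none. Both comparisons use the diabetic sedentary library, so they are not independent.

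Other classes did not show one common direction. Mural-like cells had fibrillar shares of 44%, 32.1% and 34.6%, and endothelial-like cells 7.38%, 1.26% and 0.652%. Their sub-groups differed. The mural-like cluster of Rgs5 had 29.5%, 31.8% and 29.4%. Endothelial-like cells under 2 UMIs of large-vessel genes had 0.363%, 0.673% and 0.553%, from 3, 23 and 4 fibrillar UMIs. In both the intervals of the libraries overlap. The mural-like cluster of Acta2 had 48.4% (43.7 to 53.0) in diabetic exercise against 32.65% (28.0 to 37.6) in diabetic sedentary. Endothelial-like cells with 2 or more UMIs of large-vessel genes had 22.6% (18.5 to 27.2) against 5.45% (3.59 to 7.885). Ductal-like cells had 1.70%, 3.77% and 3.85%, and the 14, 10 and 38 mesothelial-like cells 72.7%, 75% and 85.5%. The ductal-like shares rest on 39, 74 and 12 fibrillar UMIs, of which acinar RNA would by itself give an estimated 24.5, 14.3 and 3.57. In endothelial-like cells of none it would give 2.14 of the 5 fibrillar UMIs. In barcodes of acinar cells, as a measure of RNA from other cells, the share was 47.2%, 47.3% and 47.1%. Those 3 values differed by less than their counting intervals.

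A group of 47 fibroblast-like cells weighed heavily on the fibrillar share. These cells formed a cluster of their own with the leading genes Cilp, H19, Saa3, Mest, Mgp and Cdh11. It stays without a name, and its median was 8476 UMIs per cell against 3368 in the largest fibroblast-like cluster. It held 18 of 219 cells (8.22%) in diabetic exercise, 28 of 454 (6.17%) in diabetic sedentary and 1 of 241 in none. They had 5401 of 13222 fibrillar UMIs (40.8%) in diabetic exercise and 11368 of 22153 (51.3%) in diabetic sedentary, but 16.6% and 17.5% of basement membrane UMIs.

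Without them, fibrillar shares were 73.7%, 60.6% and 62.2% in diabetic exercise, diabetic sedentary and none. The log2 odds ratio of exercise over sedentary was then 0.86 (0.79 to 0.94), and that of sedentary over none −0.09 (−0.17 to −0.02), with its sign turned. In the largest cluster, led by Smoc2, Gdf10 and Inmt, the shares were 74.0%, 60.5% and 56.5%. In the cluster with Pi16, Mfap5 and Cd248, genes of fibroblasts around larger vessels, they were 73.1%, 61.3% and 72.2%. The higher share in exercise than in sedentary was thus present in each of the 3 clusters, with log2 odds ratios of 0.89, 0.78 and 0.34, while the second comparison had a log2 odds ratio of 0.24 in the Smoc2 cluster and −0.71 in the Pi16 cluster. Median mitochondrial shares of fibroblast-like cells were 5.14%, 3.68% and 1.16%, and their part in these shares was not tested.

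**Figure D2:**
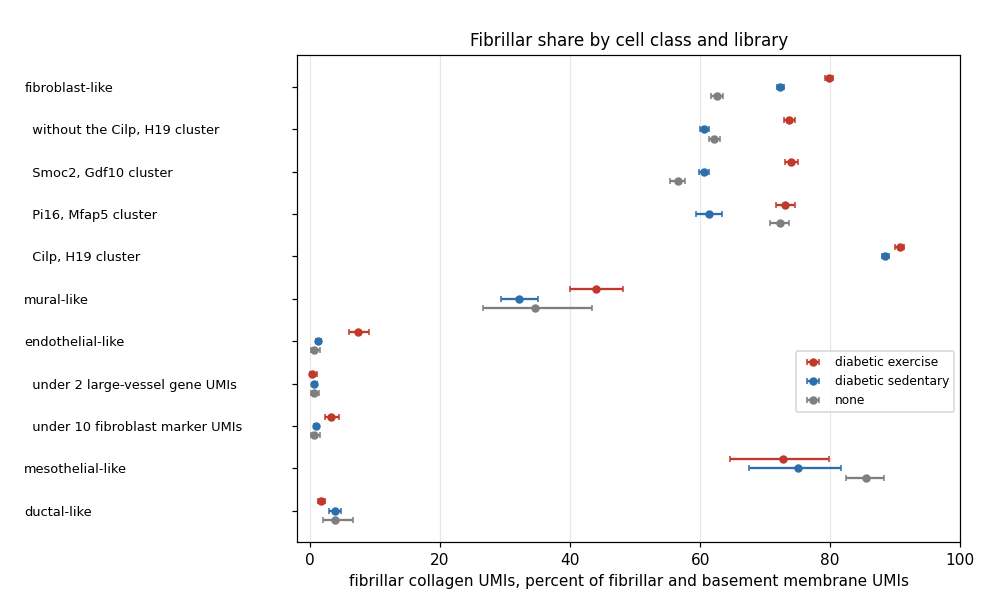
Fibrillar collagen UMIs as a percent of fibrillar and basement membrane UMIs, by class and sub-group (rows) and library (diabetic exercise, red; diabetic sedentary, blue; none, grey), with exact 95% binomial intervals for counting error; sub-groups with under 10 cells in a library are left out. Fibroblast-like cells stand at 79.8%, 72.3% and 62.6%, and at 73.7%, 60.6% and 62.2% without the Cilp, H19 cluster.

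Ratios between libraries were taken from UMIs summed over the cells of a class, as CPM over all UMIs of the class, scaled with TMM factors, and this is meant by CPM alone from here on. A gene counts as measured with at least 20 UMIs in the 2 libraries together, and as past 2-fold at a ratio of at least 2 or at most 0.5. In fibroblast-like cells 38 of the 39 genes were measured in exercise over sedentary, all but Lama5. Of these, 3 were at least 2-fold higher and 1 at least 2-fold lower in exercise, where 3.48% and 5.1% of the 9090 genes tested in these cells were higher and lower. The median log2 ratio was 0.08 over the 38 genes and −0.04 over all genes tested.

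Of the 6 fibrillar collagen chains in fibroblast-like cells none passed 2-fold between diabetic exercise and diabetic sedentary. Col1a1 stood at 2634 CPM (2537 to 2734) in diabetic exercise, 2403 (2334 to 2473) in diabetic sedentary and 1286 (1210 to 1366) in none. Col1a2, the partner chain of type I collagen, stood at 4032, 3304 and 2633 CPM. Col3a1, type III collagen, stood at 4834, 4691 and 3598 CPM. The ratios of exercise over sedentary in all fibroblast-like cells were 1.10 (1.05 to 1.15), 1.22 (1.17 to 1.27) and 1.03 (0.996 to 1.07) for Col1a1, Col1a2 and Col3a1. The Cilp cluster held 47.2% of Col1a1 UMIs in diabetic exercise and 56.4% in diabetic sedentary, and 40.7% and 54.5% of Col3a1 UMIs. Without TMM scaling the 6 chains together stood at 15104 CPM in diabetic exercise and 11667 in diabetic sedentary. Leaving out that cluster, they stood further apart, at 10954 and 6689.

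Among type V chains, which set the diameter of fibrils, Col5a1 and Col5a2 had ratios of 0.917 and 1.16, and Col5a3 had 0.555 (0.444 to 0.689), from 109 UMIs in diabetic exercise and 360 in diabetic sedentary. The type VI chains Col6a1, Col6a2 and Col6a3, which form beaded filaments around cells, had ratios of 0.942, 0.972 and 1.09. Their proportions to each other were also close, with Col6a1 at 43.1% of type VI UMIs in diabetic exercise and 44.7% in diabetic sedentary.

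Basement membrane genes in fibroblast-like cells leaned the other way, with a median log2 ratio of −0.31 over the 10 measured and none past 2-fold. Col4a1 and Col4a2 are the paired chains of the widespread type IV collagen network. Col4a1 had 611 UMIs (576 CPM, 531.5 to 624) in diabetic exercise, 2092 (1077 CPM, 1031 to 1124) in diabetic sedentary and 1347 (1618 CPM, 1532 to 1706) in none. Col4a2 stood at 354 CPM in diabetic exercise, 677 in diabetic sedentary and 664 in none. Their ratios of exercise over sedentary were 0.535 (0.488 to 0.586) and 0.522 (0.464 to 0.586).

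Lamb1, the laminin beta chain that dominates in fibroblasts, stood at 192, 384.5 and 372 CPM in diabetic exercise, diabetic sedentary and none, a ratio of 0.5004 (0.426 to 0.585) of exercise over sedentary. The other basement membrane genes lay closer to 1, with Lama2, the main laminin alpha chain of muscle and mesenchyme, at 0.710 (0.607 to 0.828), perlecan (Hspg2) at 0.799 (0.712 to 0.896), Lamc1 at 0.862 and Nid1 at 1.07. The lower values of Col4a1, Col4a2 and Lamb1 were found in each cluster. They were 0.572, 0.612 and 0.508 in the Smoc2 cluster, 0.740, 0.420 and 0.497 in the Pi16 cluster, and 0.5005, 0.534 and 0.434 in the Cilp cluster.

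The genes past 2-fold in exercise over sedentary were Col8a1, Thbs4, Postn and Adamts4. Their start regions are shown for the 3 higher genes, beside those of Col3a1 and Lamb1, as 120 bases upstream of the gene start in RefSeq on GRCm38.p6. Each is given 5′ to 3′ on the gene's own strand, with matches to TATAAA and to GGGCGG or its reverse complement in capitals. The 5 regions are chr16:57754738-57754857 (minus strand, Col8a1), chr13:92794819-92794938 (minus, Thbs4), chr3:54360987-54361106 (plus, Postn, upstream of the later of 2 RefSeq starts), chr1:45311418-45311537 (plus, Col3a1) and chr12:31265114-31265233 (plus, Lamb1, ending 59 bases before the RefSeq start).
Col8a1: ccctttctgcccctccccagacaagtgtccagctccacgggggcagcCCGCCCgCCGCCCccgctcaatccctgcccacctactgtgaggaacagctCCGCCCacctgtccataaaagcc
Thbs4: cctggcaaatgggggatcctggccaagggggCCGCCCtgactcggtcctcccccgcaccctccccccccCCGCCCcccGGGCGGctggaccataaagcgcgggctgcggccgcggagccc
Postn: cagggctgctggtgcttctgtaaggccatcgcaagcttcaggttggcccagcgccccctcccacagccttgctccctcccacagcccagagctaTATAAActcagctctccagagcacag
Col3a1: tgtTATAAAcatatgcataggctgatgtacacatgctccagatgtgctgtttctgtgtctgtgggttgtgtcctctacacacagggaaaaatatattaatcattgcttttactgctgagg
Lamb1: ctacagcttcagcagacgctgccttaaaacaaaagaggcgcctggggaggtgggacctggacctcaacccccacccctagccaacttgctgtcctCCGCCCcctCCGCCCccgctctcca
The higher genes did not share one motif: Postn has TATAAA and no GGGCGG, and Col8a1 and Thbs4 have 3 GGGCGG matches each and no TATAAA.

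Over 250 bases upstream of the start, on both strands, TATAAA occurred in 2 of the 27 genes of the set that the promoter table holds (Col3a1 and Postn), against 12.4% of all 32851 windows. GGGCGG occurred in 18 of the 27, against 32.7% of windows, and CCAAT in 9, against 33.8%. A gene counted if any of its windows held the motif, whereas the background is a share of single windows, so these are unlike units. Col4a1 and Col4a2 start head to head on chromosome 8, with RefSeq starts at 11312826 on the minus strand and 11312805 on the plus strand, so that their first 22 bases overlap. A match is a description of the letters and not a site.

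Col8a1, a short-chain collagen of vessel walls, had 264 UMIs (249 CPM) in fibroblast-like cells of diabetic exercise, 34 (17.5 CPM) in diabetic sedentary and 55 (66.0 CPM) in none. The ratio was 14.2 (9.93 to 20.98) for exercise over sedentary and 0.265 (0.168 to 0.414) for sedentary over none. The diabetic sedentary library was thus the lowest of the 3. The Cilp cluster held 206 of the 264 UMIs in diabetic exercise and 14 of the 34 in diabetic sedentary. Without it the ratio was 5.29 (3.14 to 9.29) for exercise over sedentary, from 58 and 20 UMIs, most of it in the Pi16 cluster (52 and 5 UMIs), while the Smoc2 cluster had 6 and 15 UMIs and a ratio of 0.960 (0.305 to 2.62).

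Thbs4, thrombospondin-4, a glycoprotein of tendon and vessel matrix, had 152, 26 and 14 UMIs in fibroblast-like cells of diabetic exercise, diabetic sedentary and none. Its ratio of exercise over sedentary was 10.7 (7.03 to 16.9). Of these UMIs 151 of 152 in diabetic exercise and 24 of 26 in diabetic sedentary lay in the Cilp cluster, whose 18 and 28 cells thus carried this value, and within it the ratio was 11.3 (7.30 to 18.2). In none all 14 lay in the Pi16 cluster.

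Postn, periostin, which helps to cross-link collagen, stood at 732, 264 and 107 CPM in fibroblast-like cells of diabetic exercise, diabetic sedentary and none. The ratios were 2.77 (2.48 to 3.10) for exercise over sedentary and 2.47 (1.97 to 3.13) for sedentary over none. The Cilp cluster held 81.7% of Postn UMIs in diabetic exercise and 84.4% in diabetic sedentary. Without it the ratio of exercise over sedentary was 3.24 (2.45 to 4.32), and that of sedentary over none was 0.525 (0.381 to 0.724), on the other side of 1. In the Pi16 cluster Postn had 123, 12 and 73 UMIs, and in the Smoc2 cluster 19, 68 and 8.

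Adamts4, a protease that cleaves aggrecan and versican, had 3 UMIs in fibroblast-like cells of diabetic exercise, 163 in diabetic sedentary and 62 in none. The ratio was 0.0337 (0.00688 to 0.1003) for exercise over sedentary and 1.13 (0.836 to 1.53) for sedentary over none. It was low in diabetic exercise in the Smoc2 cluster, with 2 UMIs against 104, and in the Cilp cluster, with 1 against 56. The Pi16 cluster had 0 against 3, too few UMIs to count. Mural-like cells had 1 UMI in diabetic exercise against 20 in diabetic sedentary, for a ratio of 0.0829 (0.00200 to 0.518). Endothelial-like cells did not have less, with 23.1 non-acinar CPM in diabetic exercise and 22.4 in diabetic sedentary. They held 62.5% of the 16 Adamts4 UMIs of kept cells in diabetic exercise.

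**Figure D3:**
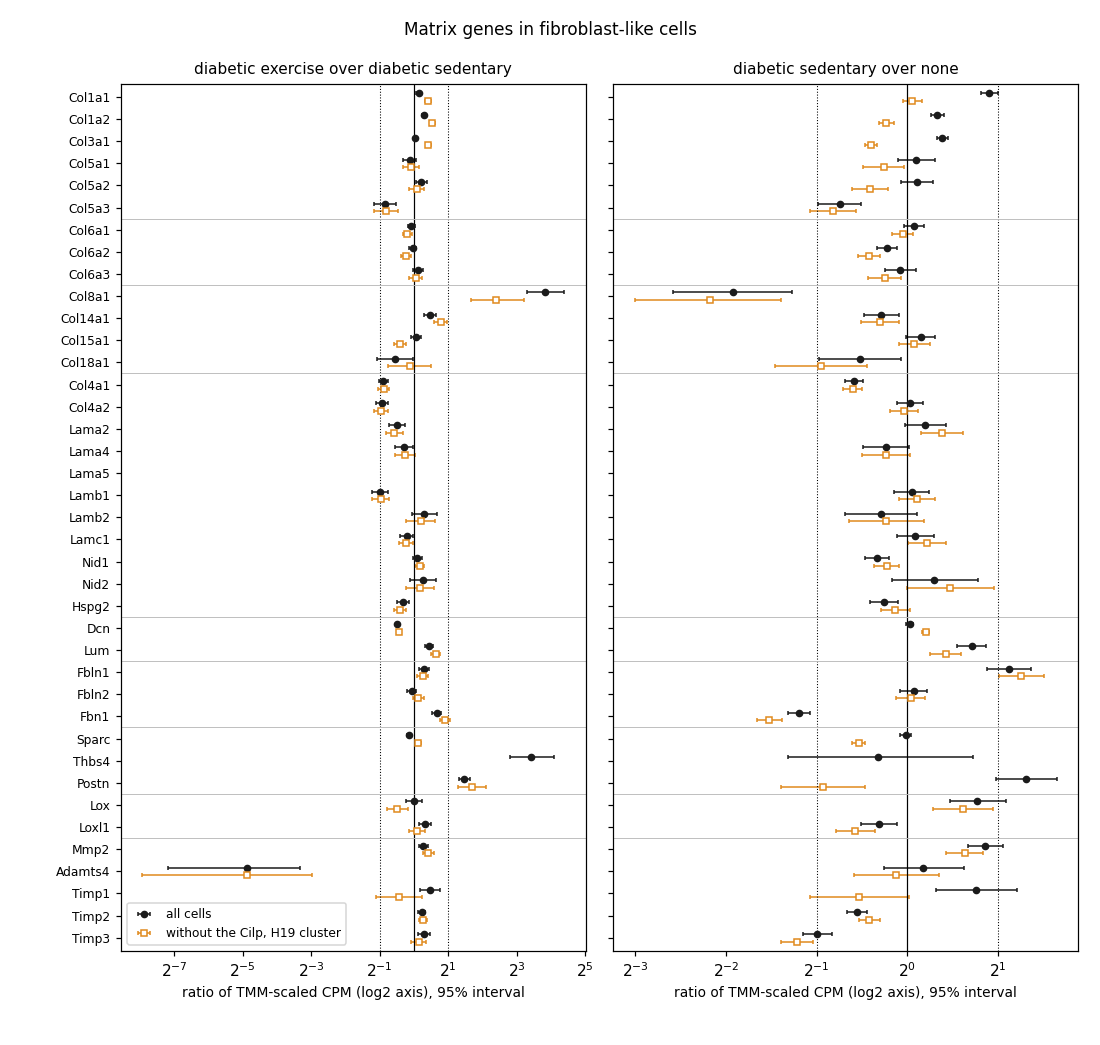
Ratio of TMM-scaled CPM in fibroblast-like cells for each of the 39 genes with at least 20 UMIs, diabetic exercise over diabetic sedentary (left) and diabetic sedentary over none (right), on a log2 axis with 95% intervals for counting error and dotted lines at 0.5 and 2. Filled points are all cells and open squares leave out the Cilp, H19 cluster; Col8a1, Thbs4 and Postn lie right of 2 and Adamts4 left of 0.5 in the left panel, and Postn changes side in the right panel without that cluster.

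The remaining genes of fibroblast-like cells stayed within 2-fold in exercise over sedentary. Dcn stood at 6462, 9074 and 8920 CPM in diabetic exercise, diabetic sedentary and none, a ratio of 0.712 (0.692 to 0.732), whereas lumican (Lum), a related proteoglycan, had levels of 1070, 792 and 485 CPM and a ratio of 1.35 (1.25 to 1.46). These 2 proteoglycans thus lay on opposite sides of 1. Fbn1, fibrillin-1 of microfibrils, had a ratio of 1.58 (1.45 to 1.72), Fbln1 1.23 and Fbln2 0.9502. The Pi16 cluster held 57 of 219 fibroblast-like cells in diabetic exercise and 66 of 454 in diabetic sedentary. The part of this make-up in the ratios was not tested. Sparc, a collagen-binding matricellular protein, had levels of 3299, 3626 and 3673 CPM and a ratio of 0.9099.

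The cross-linking enzymes Lox and Loxl1 had ratios of 0.996 (0.847 to 1.17) and 1.24, the gelatinase gene Mmp2 1.203, and the inhibitors Timp1, Timp2 and Timp3 1.38, 1.16 and 1.23. The collagens of the basement membrane zone, Col15a1 and Col18a1, had 1.04 and 0.687 (0.470 to 0.988), and Col14a1, which sits on fibril surfaces, 1.39 (1.24 to 1.57). In the Cilp cluster lay 82.5% of Timp1 UMIs in diabetic exercise and 67.5% in diabetic sedentary, and 50% and 30.6% of Lox UMIs. Without the cluster Timp1 had a ratio of 0.741 (0.460 to 1.17).

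For sedentary over none in fibroblast-like cells, 38 genes were measured, 2 were at least 2-fold higher and 2 at least 2-fold lower, where 7.03% and 3.88% of 8829 genes were. The medians were 0.04 over the genes of the set and 0.01 over all genes tested. Postn and Fbln1 were the higher genes. Fbln1 had 440 CPM in diabetic sedentary against 203 in none, a ratio of 2.17 (1.84 to 2.57), with 1.87 in the Smoc2 cluster and 2.48 in the Pi16 cluster. Col8a1 and Fbn1 were the lower genes, and Fbn1 had 589 CPM in diabetic sedentary against 1344 in none, a ratio of 0.438 (0.403 to 0.476). Within single clusters Fbn1 was not past 2-fold, with 0.667 (0.592 to 0.7505) in the Pi16 cluster and 0.559 (0.466 to 0.672) in the Smoc2 cluster. The Pi16 cluster held 878 of the 1119 Fbn1 UMIs of none, and 66 of 454 cells in diabetic sedentary against 84 of 241 in none.

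Several abundant genes lay between these bounds. Col1a1 had a ratio of sedentary over none of 1.87 (1.75 to 1.998), which without the Cilp cluster was 1.04 (0.964 to 1.12). Col1a2 and Col3a1 had 1.26 and 1.30, Lum 1.63 (1.46 to 1.83), Lox 1.71, Mmp2 1.81 (1.59 to 2.07) and Timp1 1.68. Without the Cilp cluster Col1a2, Col3a1 and Timp1 lay on the other side of 1, at 0.852 (0.807 to 0.8998), 0.758 (0.7225 to 0.795) and 0.692 (0.477 to 1.01), and Lum, Lox and Mmp2 were at 1.34, 1.52 and 1.55. Timp3 had 0.501 (0.449 to 0.560), Col5a3 0.596, Col4a1 0.666 (0.621 to 0.713) and Timp2 0.681, while Col4a2 had 1.02 (0.923 to 1.13). The 2 type IV chains therefore differed in this comparison, with Col4a1 at 61.4% of type IV UMIs in diabetic sedentary and 70.9% in none.

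Endothelial-like cells, which line vessels, had 27 genes of the set measured in exercise over sedentary. Of these 10 were at least 2-fold higher and 1 at least 2-fold lower, where 4.37% and 5.31% of the 8010 genes tested were, with medians of 0.15 and −0.07. The higher genes were Col1a2, Col3a1, Col5a2, Col6a1, Col8a1, Dcn, Fbn1, Lox, Mmp2 and Timp2. The counts behind them were small, from 12 to 102 UMIs in diabetic exercise and 4 to 49 in diabetic sedentary.

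Much of the signal of the fibroblast-type genes lay in a few cells. In diabetic exercise 4 of the 245 endothelial-like cells carried 31 to 88 UMIs of fibroblast markers each, and they held 53 of the 89 fibrillar UMIs and 92 of the 94 Dcn UMIs. In diabetic sedentary 1 such cell, with 33 fibroblast marker UMIs, held 13 of 49 fibrillar and 16 of 38 Dcn UMIs, and none had no such cell. Fibroblast markers summed to 723, 122 and 102.4 non-acinar CPM in endothelial-like cells of the 3 libraries, with 13, 13 and 6 of 14 seen and Lsp1 at 0 throughout.

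Without the cells of 10 or more fibroblast marker UMIs, 22 genes were measured. Of these 5 were at least 2-fold higher and 4 at least 2-fold lower, where 4.07% and 5.32% of all genes tested in these cells were. Col5a2 (6.42), Col8a1 (4.89), Lox (9.85), Fbn1 (4.64), Mmp2 (10.7) and Timp2 (4.37) kept ratios above 2, though Mmp2 then had too few UMIs to count. Dcn was at 0.195 (0.0222 to 0.792), on the other side of 1. Col3a1 (7 against 12 UMIs), Col1a2 (1 against 6) and Col6a1 (2 against 8) also had too few UMIs to count, with ratios of 1.25 (0.417 to 3.44), 0.357 (0.00776 to 2.94) and 0.535 (0.0554 to 2.68). A sub-group also mattered: cells with at least 2 UMIs of large-vessel genes (Vwf, Mgp, Bgn, Cytl1, Gja5, Bmx, Sema3g, Ackr1, Selp) were 84 of 245 in diabetic exercise, 58 of 475 in diabetic sedentary and 8 of 98 in none.

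Of the fibrillar UMIs 86 of 89 in diabetic exercise and 26 of 49 in diabetic sedentary lay in those large-vessel cells. The 4 cells rich in fibroblast markers held 53 of the same 89 UMIs, so these groups of cells overlap and were not separated. Mgp, which helps to define the large-vessel cells, is also a leading gene of the Cilp cluster of fibroblast-like cells. Among endothelial-like cells under 2 UMIs of large-vessel genes 16 genes of the set were measured. In exercise over sedentary 0 were 2-fold higher and 2 were 2-fold lower, where 2.85% and 7.17% of all genes tested in these cells were. Lox, for example, had 13 and 11 UMIs in the clusters led by Sema3g and Gja5 and by Vwf and Selp in diabetic exercise, 0 and 4 in diabetic sedentary, and 0 and 1 in the cluster with Rgcc and Kdr, genes of capillaries.

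Basement membrane genes had 1117, 3846 and 762 UMIs in endothelial-like cells of diabetic exercise, diabetic sedentary and none, and type IV collagen and Lamb1 were lower in diabetic exercise. Col4a2 stood at 248 CPM in diabetic exercise, 620.5 in diabetic sedentary and 762 in none, a ratio of exercise over sedentary of 0.400 (0.342 to 0.466). Col4a1 had levels of 438, 874 and 1172 CPM and a ratio of 0.502 (0.445 to 0.564). Lamb1 had 33, 137 and 10 UMIs and a ratio of 0.501 (0.332 to 0.738), and Sparc had levels of 877, 1560 and 1301 CPM and a ratio of 0.562 (0.516 to 0.611).

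The same 4 genes lay below 1 in the Rgcc cluster taken alone. There Col4a1, Col4a2, Lamb1 and Sparc had ratios of 0.672 (0.586 to 0.768), 0.582 (0.489 to 0.689), 0.598 (0.362 to 0.946) and 0.767 (0.694 to 0.846). The other genes were nearer 1 in all endothelial-like cells, with Hspg2 at 0.929 (0.794 to 1.08), Lama4, the endothelial laminin alpha chain, at 0.9295, Lama5 at 1.11, Lamb2 at 1.03, Lamc1 at 1.10 and Nid1 at 0.694 (0.524 to 0.9098). Fbln2, fibulin-2, had 1.16, Col15a1 0.761 and Timp3 0.708 (0.656 to 0.765).

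**Figure D4:**
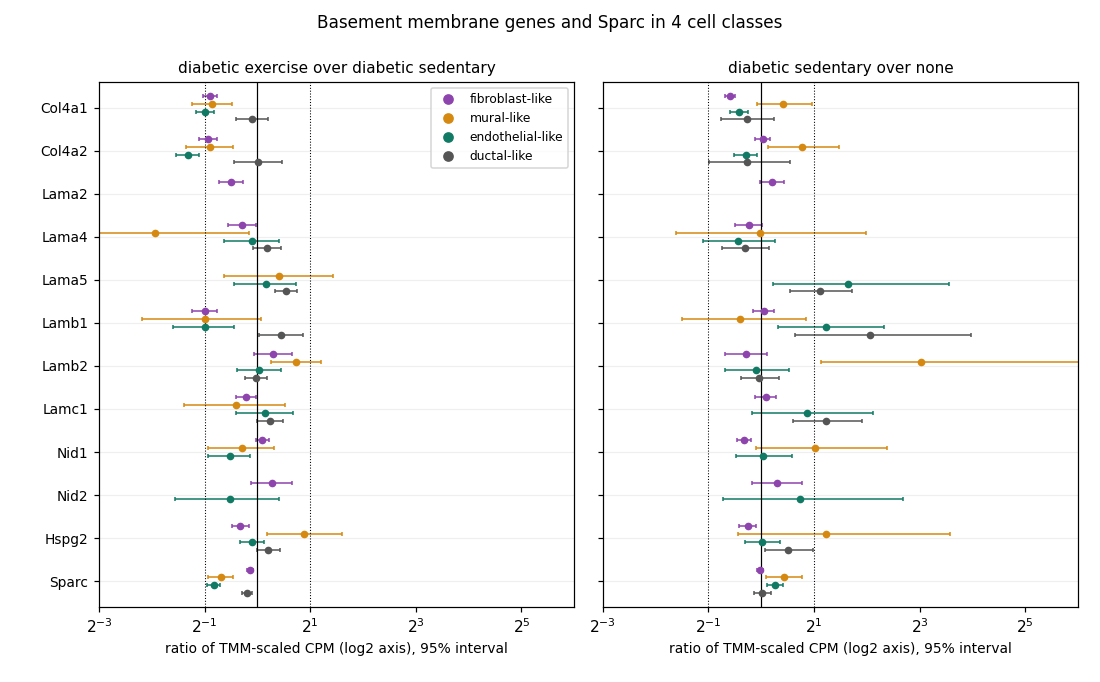
Ratio of TMM-scaled CPM of the 11 basement membrane genes and Sparc in fibroblast-like (purple), mural-like (orange), endothelial-like (green) and ductal-like (grey) cells, diabetic exercise over diabetic sedentary (left) and diabetic sedentary over none (right), on a log2 axis with 95% counting intervals, some of which run past the axis; genes under 20 UMIs in the comparison or at 0 in a library are not drawn. In the left panel Col4a1 and Col4a2 lie between 0.400 and 0.553 in fibroblast-like, mural-like and endothelial-like cells and at 0.933 and 1.01 in all ductal-like cells together.

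For sedentary over none 19 genes were measured in endothelial-like cells, of which 6 counted as 2-fold higher and 0 as lower, genes with 0 UMIs in none included, where 13.5% and 3.51% of 7144 genes were. The medians were 0.10 and 0.06. Lamb1 had a ratio of 2.35 (1.24 to 5.01), Lama5 3.13 (1.17 to 11.8) from 73 and 4 UMIs, and Timp2 2.80 (0.904 to 14.0) from 49 and 3 UMIs. Col18a1, Dcn and Adamts4 had 40, 38 and 23 UMIs in diabetic sedentary and 0 in none. Against a floor of 3 UMIs in none they were 2.29-fold, 2.17-fold and 1.32-fold higher. That floor is not an interval bound, so a 2-fold difference is not shown for these genes. For Col18a1, 1 cell held 65% of the UMIs. Col4a1, Col4a2 and Hspg2 had 0.746, 0.815 and 1.02.

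Mural-like cells had 28 genes measured in exercise over sedentary, with 1 at least 2-fold higher and 8 lower, where 5.42% and 11.5% of 3761 genes were, and medians of −0.47 over the set and −0.12 over all genes tested. Most mural-like cells of diabetic exercise (46 of 81) were in the cluster with Acta2, Myh11 and Tagln, genes of smooth muscle, against 33 of 163 in diabetic sedentary and 3 of 42 in none. The rest were in the cluster with Kcnj8, Abcc9 and Rgs5, genes of pericytes. The class thus had another make-up in each library.

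Timp3 had 263, 980 and 252 UMIs in mural-like cells of diabetic exercise, diabetic sedentary and none, and a ratio of exercise over sedentary of 0.445 (0.387 to 0.511). It was 0.531 (0.442 to 0.635) in the Rgs5 cluster and 0.933 (0.718 to 1.21) in the Acta2 cluster. The level of Timp3 itself was 5446 non-acinar CPM in the Rgs5 cluster and 1300 in the Acta2 cluster. Col1a1 had 78, 12 and 2 UMIs and a ratio of 10.8 (5.84 to 21.8), with 77 of the 78 UMIs of diabetic exercise in the Acta2 cluster and 20.5% of them in 1 cell.

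Col6a1 had a ratio of 0.415 (0.2505 to 0.661) in all mural-like cells and 0.886 (0.453 to 1.63) in the Rgs5 cluster. In the Acta2 cluster it had 0.198 (0.0846 to 0.414), from 9 and 41 UMIs. Col5a2, Col5a3, Lama4 and Fbn1 were the other lower genes, each from 3 to 7 UMIs in diabetic exercise, with Dcn (0.421) and Adamts4. Dcn had 35 against 127 UMIs in the Acta2 cluster, a ratio of 0.249 (0.166 to 0.364). The 6 cells with 10 or more fibroblast marker UMIs in diabetic sedentary held 72 of its 138 Dcn UMIs. Without such cells in any library 1 of 25 genes measured was higher and 5 were lower, where 5.53% and 13.1% of all genes tested were. Col4a1 and Col4a2 had ratios of 0.553 (0.422 to 0.717) and 0.538 (0.394 to 0.725), and 0.529 and 0.546 in the Rgs5 cluster. In the Acta2 cluster they had 0.716 (0.484 to 1.054) and 0.642 (0.409 to 0.997).

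For sedentary over none 26 genes were measured in mural-like cells, and 13 counted as 2-fold higher and 0 as lower, where 25.1% and 3.36% of 2794 genes were. The medians were 0.93 and 0.25. The none library had 128072 UMIs in 42 mural-like cells, against 469440 in 163 cells of diabetic sedentary, and 9 of the 13 genes had 0 to 3 UMIs in it. Col1a2 had 124 UMIs in diabetic sedentary and 8 in none, a ratio of 3.20 (1.57 to 7.57), Col6a1 2.37 (1.15 to 5.66) and Timp2 3.71 (1.65 to 10.3). Lamb2 had 79 and 2 UMIs, a ratio of 8.14 (2.18 to 68.4). Lamc1 had 33 UMIs in diabetic sedentary and 0 in none, 2.27-fold higher against the floor of 3 UMIs. Col6a3 and Lama5 had 23 and 20 UMIs in diabetic sedentary and 0 in none, 1.58-fold and 1.37-fold higher against that floor. The floor is not an interval bound, so a 2-fold difference is not shown for Lamc1, Col6a3 or Lama5.

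Ductal-like cells, the epithelium of the pancreatic ducts, had little fibrillar RNA, and most of the set there was Timp3, Timp2, Sparc and laminins. In exercise over sedentary 19 genes were measured, with 0 at least 2-fold higher and 3 lower, where 3.34% and 1.51% of 12151 genes were. The lower genes were Col1a1 (7 against 16 UMIs), Col3a1 (11 against 26) and Dcn (23 against 52). The acinar RNA profile would by itself give an estimated 10.4 and 6.13 Col3a1 UMIs and 12.7 and 12.0 Dcn UMIs in those cells, in diabetic exercise and diabetic sedentary, beside which the 11 Col3a1 UMIs of diabetic exercise were no higher than background. Without cells of 10 or more fibroblast marker UMIs 0 of 17 genes measured were past 2-fold in this comparison, where 3.08% and 1.68% of all genes tested were higher and lower.

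Genes well above that background lay nearer 1. Timp3 stood at 629 CPM in diabetic exercise, 735 in diabetic sedentary and 606 in none, a ratio of 0.855 (0.815 to 0.898), and Timp2 at 396, 396 and 340 CPM. In all ductal-like cells together Col4a1 and Col4a2 had ratios of exercise over sedentary of 0.933 (0.755 to 1.15) and 1.01 (0.732 to 1.39). Lama5 had levels of 94.5, 64.9 and 30.1 CPM and a ratio of 1.46 (1.26 to 1.69), and Fbln2 at 134, 71.3 and 8.59 CPM, a ratio of 1.88 (1.65 to 2.15).

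For sedentary over none 17 genes were measured in ductal-like cells, and 6 were at least 2-fold higher and 0 lower, where 8.06% and 3.06% of 11081 genes were, with medians of 0.22 and 0.04. Fbln2 had a ratio of 8.30 (4.16 to 19.4), Loxl1 13.3 (2.30 to 532) from 67 and 1 UMIs, Lamb1 4.16 (1.57 to 15.6), Lamc1 2.33 (1.52 to 3.73) and Lama5 2.16 (1.46 to 3.30). Dcn was the sixth, at 2.58 (0.948 to 9.81).

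The make-up of the ductal class also moved. The cluster with Onecut2 and Tspan8 held 295 of 615 cells in diabetic exercise, 184 of 578 in diabetic sedentary and 1 of 139 in none, and 622 of 657, 285 of 335 and 2 of 8 Fbln2 UMIs. In the other ductal cluster the ratios of sedentary over none were 2.22 (0.953 to 6.34) for Fbln2, 3.73 (1.38 to 14.2) for Lamb1, 2.09 (1.35 to 3.38) for Lamc1 and 1.87 (1.23 to 2.93) for Lama5, and 1.87 (0.240 to 84.1) for Loxl1, from 7 and 1 UMIs, since 60 of its 67 UMIs in diabetic sedentary lay in the Onecut2 cluster. Those of exercise over sedentary were 0.918 for Fbln2 and 1.17 for Lama5.

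Mesothelial-like cells were few, and 11 genes were measured in exercise over sedentary. Of these 1 was at least 2-fold higher and 0 lower, where 7% and 9.24% of 671 genes were. Timp3 was that gene, with 56 UMIs in 14 cells of diabetic exercise and 11 in 10 cells of diabetic sedentary, a ratio of 4.15 (2.15 to 8.79). In sedentary over none 16 genes were measured, with 1 higher and 6 lower, where 3.73% and 19.1% of 1341 genes were. Col14a1 was higher at 2.64 (1.08 to 6.42), and Col1a1, Col6a1, Col6a2, Fbln2, Sparc and Loxl1 were lower, with ratios between 0.203 and 0.471. Ductal markers stood at 3831, 8041 and 3063 non-acinar CPM in these cells, and their part in the ratios was not tested.

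Laminins are trimers of an alpha, a beta and a gamma chain, and the chains made differed between classes. Lama2 had 57.2%, 60.8% and 53.5% of alpha chain UMIs in fibroblast-like cells of diabetic exercise, diabetic sedentary and none, and Lama4 most of the rest. Endothelial-like cells had Lama4 at 52.3%, 57.5% and 80% and Lama5 at 44.3%, 40.8% and 13.3%, the last from 30 UMIs in all. Ductal-like cells had Lama5 at 63.4%, 57.4% and 33.7% and Lama4 at 36.6%, 42.4% and 66.3%, with 0, 1 and 0 UMIs of Lama2. These are shares of 3′ UMIs, which count molecules and not their length.

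Among beta chains, Lamb1 made up 65.8% (60.2 to 71.1), 82.5% (79.9 to 85.0) and 78.9% (74.5 to 82.8) in fibroblast-like cells. In endothelial-like cells it made up 30.6% (22.0 to 40.2), 47.4% (41.5 to 53.3) and 26.3% (13.4 to 43.1), and in ductal-like cells 22.8%, 17.6% and 4.76%. Diabetic exercise thus had a lower Lamb1 share than diabetic sedentary in fibroblast-like and endothelial-like cells, with intervals apart, and a higher one in ductal-like cells, with intervals that overlap. Among the inhibitors, Timp2 had 62.7% of TIMP UMIs in fibroblast-like cells of diabetic exercise, and Timp1 9.48%.

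**Figure D5:**
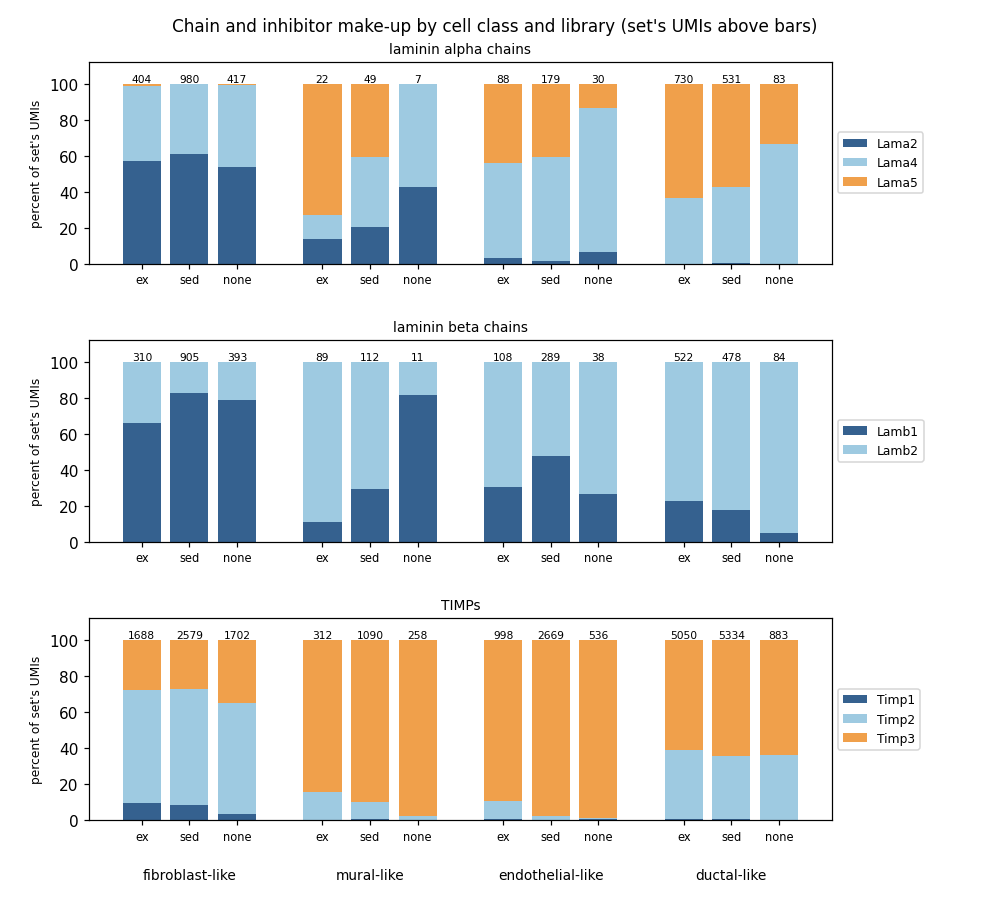
Share of each chain in the UMIs of laminin alpha chains (top), laminin beta chains (middle) and tissue inhibitors of metalloproteases (bottom), by class and library (ex, diabetic exercise; sed, diabetic sedentary; none), with the set's UMIs above each bar. Lama2 is largest in fibroblast-like bars, Lama5 in ductal-like bars of both diabetic libraries, and Timp3 in mural-like, endothelial-like and ductal-like bars.

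With each cell thinned to 1000 UMIs, to remove the difference in depth, 45.6% (38.4 to 52.9) of fibroblast-like cells in diabetic exercise had a UMI of Col4a1, 57.2% (52.4 to 61.9) in diabetic sedentary and 60.3% (53.7 to 66.5) in none. Unthinned shares were 64.4%, 85.2% and 84.2%. Among 1000 acinar barcodes per library, thinned alike, 0.3%, 0.5% and 0.4% had one. For Col1a1 the thinned shares were 64.2%, 56.7% and 56.1%, and for Dcn 96.9%, 97.0% and 94.98%. In endothelial-like cells Col4a1 was seen in 34.2%, 49.3% and 59.8% of thinned cells. Cells under 1000 UMIs were left out, which kept 193 of 219, 437 of 454 and 239 of 241 fibroblast-like cells.

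Other genes of the pathway were counted by the same rule. In fibroblast-like cells 3.48% and 5.1% of all genes tested were higher and lower in exercise over sedentary, and 7.03% and 3.88% in sedentary over none. Of 17 genes of collagen processing, 16 were measured in fibroblast-like cells, and in exercise over sedentary 1 was higher (Pcolce2, a procollagen protease enhancer, 2.63, interval 2.10 to 3.30) and 0 were lower, with a median log2 ratio of −0.11. In sedentary over none 0 were higher and 1 was lower, again Pcolce2, at 0.319. Of 19 matrix receptors 12 were measured, and 0 passed 2-fold in exercise over sedentary, while in sedentary over none Sdc1 was higher (40 against 1 UMIs) and Itga5 lower (0.473).

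Of 17 genes of TGF-beta signalling all were measured in fibroblast-like cells. In exercise over sedentary 2 were higher, Ccn2 (2.94, 2.15 to 4.04) and Ltbp2 (2.75), and 1 was lower, beside 3.48% and 5.1% of all genes. The median log2 ratio was 0.29. In sedentary over none 2 were higher (Tgfb3, Tgfbi) and 3 lower (Smad2, Tgfb2, Ltbp4), beside 7.03% and 3.88% of all genes, with a median of −0.20. Genes of this list therefore lay on both sides of 1 in both comparisons.

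Of 43 other matrix genes 34 were measured in fibroblast-like cells. In exercise over sedentary 5 were higher and 4 lower, beside 3.48% and 5.1% of all genes tested. Elastin (Eln) had 533 UMIs in diabetic exercise against 260 in diabetic sedentary, which is a ratio of 3.76 (3.23 to 4.37), Col12a1 3.48 and Aspn 2.29, whereas Thbs1 had 0.421 (0.374 to 0.473) and Adamts9 0.356. In sedentary over none 6 were higher and 6 lower, beside 7.03% and 3.88% of all genes tested. Tnc, tenascin-C, had 67 UMIs in diabetic sedentary and 0 in none, 9.57-fold higher against the floor of 3 UMIs. The interval of its ratio began at 7.57. Thbs2 had 7.98 (4.83 to 14.2), and fibronectin (Fn1) 0.324 (0.295 to 0.355).

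In endothelial-like cells 5 of 13 measured other matrix genes were higher in exercise over sedentary and 3 lower, beside 4.37% and 5.31% of all genes. Eln had 260 and 106 UMIs, a ratio of 5.11 (4.06 to 6.46), Fn1 65 and 14, a ratio of 9.66, and Bgn 12.5, although Bgn is 1 of the genes that marked the large-vessel cells. Thbs1 (0.463) and Adamts1 (0.469) were lower. Of the TGF-beta genes 3 of 13 were higher (Ltbp3, Ccn2, Ltbp4), of the receptors 1 of 11 (Itgb4, 3.01), and of the processing genes 2 of 11 were lower (Fkbp10, Plod2).

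In ductal-like cells the counts for sedentary over none were 4 higher and 1 lower of 16 processing genes, 4 and 1 of 14 receptors, 5 and 0 of 14 TGF-beta genes and 5 and 1 of 21 other matrix genes, beside 8.06% and 3.06% of all genes tested. Lamb3, a chain of the laminin of epithelia, had 138 UMIs in diabetic sedentary and 0 in none, 9.12-fold higher against the floor of 3 UMIs. The interval of its ratio began at 7.32. Its partner Lama3 had 88 and 1 UMIs, a ratio of 17.5 (3.05 to 697). Integrin Itga3 had 2.22 and Tgfbr2 6.34 (2.11 to 31.3), while Itga5 had 0.363. In exercise over sedentary each of these lists had at most 1 gene past 2-fold in either direction, beside 3.34% and 1.51% of all genes. In mural-like cells 8 processing genes, 11 receptors, 9 TGF-beta genes and 16 other matrix genes were measured in exercise over sedentary. The 4 lists together had 6 genes higher and 6 lower, beside 5.42% and 11.5% of all genes. In sedentary over none they had 16 higher and 0 lower, beside the 25.1% of all genes that were higher there. Endothelial-like cells had 2 of 11 processing genes, 1 of 10 receptors, 3 of 11 TGF-beta genes and 5 of 10 other matrix genes higher and 0 lower in sedentary over none, beside 13.5% and 3.51% of all genes, and in lists this short the first 2 counts are near that share. In mesothelial-like cells Ogn was higher in exercise over sedentary (2.08, 1.002 to 4.62), and Bmp1 and Fmod were lower in sedentary over none.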

How the data were processed

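The 3 libraries, 1 per group, hold single-cell RNA of mouse pancreas. The deposited matrices hold whole-number UMI counts per gene and barcode, with no normalization. Cell Ranger is given as version 7.1.0 per the submitters' processing notes and as 6.1.2 per the file headers, and the sources used here do not give the genome build. The 39 genes and all lists were chosen with earlier results of these data known.

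Barcodes under 500 UMIs, under 200 genes or over 20% mitochondrial UMIs were dropped. Scrublet's automatic threshold marked 0.00543%, 0% and 0% of barcodes in diabetic exercise, diabetic sedentary and none, so the 5% with the highest scores were removed (922, 637 and 498), which left 14998, 10991 and 8677. Cells were clustered in 2 rounds (Leiden, resolution 1, 2000 variable genes, 30 components, 15 neighbours), with the 39 genes and the other matrix genes left out. Clusters of acinar cells and acinar-RNA-rich sub-clusters were set aside. A cluster was named with at least 2 markers among its 10 leading genes and at least 3 markers in at least 10% of cells. Clusters led by Cilp, by Sema3g, by Vwf and by Apoc1 did not meet this and kept the class of most of their cells from the first round.

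UMIs were summed per class and library and scaled by TMM over the 3 libraries (prior 0.5 UMIs for log2 ratios). Levels across classes are CPM over UMIs outside 31 acinar markers and mitochondrial genes. Intervals are exact 95% (Poisson, conditional Poisson for ratios, Clopper-Pearson for shares). The calls past 2-fold used the ratio with no prior, so that a measured gene with 0 UMIs in 1 library always counted. The printed fold of such a gene is the value against a floor of 3 UMIs per library, which is not an interval bound. Shares of cells were taken after thinning to 1000 UMIs. With 1 library per group no test was possible. All 39 genes were described by role, with intervals for those past 2-fold with at least 20 UMIs and for the genes with most UMIs of each role, and at most 4 genes per direction were named from the lists of collagen processing, matrix receptors, TGF-beta signalling and other matrix genes. Alternatives changed the scaling, the filters, the clustering and the cells used. No column of another series was present. One gene of the lists is not reported here.

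Python 3.11.15, scanpy 1.11.5, anndata 0.12.19, leidenalg 0.10.2, igraph 0.11.9, numpy 2.4.6, scipy 1.17.1, pandas 2.3.3, matplotlib 3.10.9 and R 4.3.3 with edgeR 4.0.16 (for TMM) were used. Scripts were tested on simulated data.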

Additional observations from a re-analysis of the deposited data

Results flagged for a closer look

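For 3 genes the ratio of diabetic exercise over diabetic sedentary lay on opposite sides of 1 in different classes, past 2-fold and with a counting interval that leaves out 1 in each, mesothelial-like cells not counted. The difference between classes was not tested, since each group has 1 library. Col3a1 stood at 3.55 in endothelial-like cells and 0.406 in ductal-like cells, the second at the level of acinar background. Col5a2 stood at 5.30 in endothelial-like cells and 0.375 in mural-like cells. Dcn stood at 5.15 in endothelial-like cells, 0.421 in mural-like cells and 0.424 in ductal-like cells. Of the 94 Dcn UMIs of endothelial-like cells in diabetic exercise 92 lay in 4 cells rich in fibroblast markers, and without such cells Dcn was at 0.195 and Col3a1 at 1.25 (7 against 12 UMIs), while Col5a2 was at 6.42. Another 4 genes were past 2-fold both ways without meeting that rule: Col1a1 (mural-like 10.8, ductal-like 0.4196), Col6a1 (endothelial-like 2.498, mural-like 0.415), Fbn1 (endothelial-like 4.30, mural-like 0.433) and Timp3 (mesothelial-like 4.15, mural-like 0.445).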

How the results depend on the processing

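No paired analysis was possible because each group has 1 library. EX stands here for exercise over sedentary and DN for sedentary over none; counts are genes of the set at least 2-fold higher or lower. Of 152 counts 105 stayed within 1.5 times, of 108 log2 odds ratios of fibrillar against basement membrane UMIs 87 stayed close and 5 changed sign, and of 403 ratios of single genes 362 stayed close and 7 changed sign.

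On non-acinar CPM, 1 ductal-like gene was higher in EX, 2 mural-like genes were higher in EX and 1 was lower in DN. Unscaled, 1 ductal-like gene was higher in EX, 7 fibroblast-like genes were higher and 1 lower in DN, and 3 mural-like genes were higher and 4 lower in EX. Scaling moved the all-gene median log2 ratio, in fibroblast-like cells from −0.04 with TMM to 0.20 unscaled in EX and from 0.01 to 0.35 in DN. With Col15a1 and Col18a1 as basement membrane genes the fibroblast-like EX odds were 0.53. With acinar RNA subtracted the ductal-like EX odds were −2.25 with 1 gene higher, and 2 mural-like genes were lower in DN.

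Thinned to 1000 UMIs, ductal-like cells had 2 higher in DN and 1 lower in EX, endothelial-like cells 1 higher and 1 lower in DN and 2 higher in EX, mural-like cells 8 higher in DN and 5 lower in EX, and fibroblast-like cells 3 lower in EX. With a minimum of 50 UMIs, endothelial-like cells had 3 higher in DN and 2 in EX, mural-like cells 7 higher in DN and 3 lower in EX, and ductal-like cells 1 lower in EX. With no minimum, ductal-like cells had 17 higher and 6 lower in DN and 3 higher and 7 lower in EX, endothelial-like cells 18 higher and 4 lower in DN and 17 higher and 2 lower in EX, and mural-like cells 21 higher in DN and 3 in EX.

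With doublets kept the endothelial-like EX odds were 1.98, with 2 lower, and 1 ductal-like gene was lower in EX. With the 39 genes among the clustering genes the endothelial-like EX odds were 1.68, and at resolution 0.5 they were 3.31. At resolution 2, 2 endothelial-like genes were lower in EX and 1 mural-like gene in DN. Without cells with a UMI of Pi16, Mfap5 or Dpp4 the fibroblast-like odds were 0.14 in DN and 0.38 in EX, with 0 higher in DN and 1 higher and 2 lower in EX. In endothelial-like cells under 2 large-vessel UMIs the EX odds were −0.89, with 0 higher and 2 lower, and log2 ratios were −1.84 for Col1a2, −1.05 for Col3a1, −2.23 for Dcn and −0.43 for Timp2.

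The following were chosen after seeing the data. In single clusters the fibroblast-like odds were −0.71 in DN and 0.78 in EX (Pi16), 0.24 and 0.89 (Smoc2) and 0.34 in EX (Cilp). Without the Cilp cluster they were −0.094 in DN and 0.86 in EX, with 1 higher in DN, and Postn had a log2 ratio of −0.93 in DN. The mural-like EX odds were −0.16 in the Rgs5 cluster. Endothelial-like odds were −2.28 in DN and 4.81 in EX (Sema3g), 0.004 in EX (Vwf) and −0.90 in EX (Rgcc). Under 10 fibroblast marker UMIs, endothelial-like EX odds were 1.85, with 5 higher and 4 lower and log2 ratios of −1.02 for Col1a2 and −2.07 for Dcn, and 0 ductal-like and 5 mural-like genes were lower in EX.

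The cause of these shifts was not tested. A mitochondrial ceiling of 10% and leaving out the cell with most UMIs of the 2 gene groups in each library moved none of the counts or odds. With 1 library per group the spread between mice is unknown, classes of few cells (mural-like and mesothelial-like) give wide intervals, and fewer cells of a type cannot be told from less RNA per cell in sums over a class.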
